A study of Mus musculus with 24 samples.

Results

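The genes of ileal bile acid uptake, export and FXR-FGF15 signalling were followed by symbol in RNA sequencing counts from the mouse intestine. The set held 10 genes (Slc10a2, Fabp6, Slc51a, Slc51b, Fgf15, Nr1h4, Nr0b2, Gpbar1, Abcc2 and Abcc3) of the 55536 genes in the count table, each found once by its Ensembl identifier. The rule that chose them used gene function and symbols, not a threshold on measured values. The tissue was small intestine by the sample titles, described by the study as its distal part (ileum), from 24 inbred C57BL/6N mice. There was 1 library per animal and 1 animal per cage, so the animals of a group were separate samples. Feeding started at 4 to 5 weeks of age and lasted 20 weeks before treatment: the CD group received a control diet with 10 kcal% fat and the HFD group a high-fat diet with 60 kcal% fat. The CDmetf and HFDmetf groups had the same diets and then metformin, an oral antidiabetic drug, in the drinking water at 50 mg per kg body mass and day for 10 weeks. Each of the 4 groups had 6 animals, 3 males (M1 to M3) and 3 females (F1 to F3). The labels name no altered allele. A library came from a whole piece of gut, so fewer cells of a type and less RNA per cell cannot be told apart.

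In the ileum, bile acids are taken up from the gut lumen by the apical sodium-dependent transporter, carried through the enterocyte by a binding protein and released to the portal blood by a heterodimeric exporter. Inside the cell they bind the nuclear receptor FXR, which acts as a heterodimer with RXR at DNA elements that include inverted repeats of the half-site AGGTCA. Its intestinal targets include the binding protein, both exporter subunits, the repressor SHP and the hormone FGF15, which travels to the liver and lowers bile acid synthesis there.

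Reads counted on genes ranged from 1829690 to 40606442 per library. Reads counted on no gene made up 35.5% to 75.7% of a library. In the library labelled CD M3, 10 genes took 85.4% of the reads on genes, and in 2 libraries, HFD M2 and HFD F2, sex-linked transcripts went against the labels. HFD M3 stood apart from the other libraries in the genes described here. Marker genes of the distal small intestine were present, with Cubn, the intrinsic factor receptor of the ileum, at 413 to 2599 CPM (counts scaled to the reads on genes of the library, with TMM factors). Gata4, a transcription factor of duodenum and jejunum that is normally absent from the distal ileum, was nevertheless at 19.9 to 117 CPM in 16 libraries and at 0.293 to 5.96 CPM in the other 8. The colonic gene Hoxd11 had 0 reads in all 24 libraries.

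The 10 genes spanned a wide range of levels, which are compared between genes only per kb of exon. Fabp6 had the highest median over the 24 libraries, 2038 CPM per kb, and ran from 1.76 to 5466 CPM per kb. Slc51a followed at a median of 140 CPM per kb. Fabp6 was above Slc51a in 22 of 24 libraries, and Slc51a was above Slc51b in all 24. The next 6 genes lay close together, with medians per kb of 39.3 for Slc51b, 33 for Abcc2, 23.6 for Nr1h4, 23.3 for Slc10a2, 13.3 for Fgf15 and 11.5 for Abcc3. Neighbours among these 6 were not separated beyond their spread: the gene with the higher median was the higher one in 12 to 17 of 24 libraries. Nr0b2 and Gpbar1 were the lowest, at medians of 0.739 and 0.457 CPM per kb, and Abcc3 was above Nr0b2 in all 24 libraries. Of the 10 genes, 8 passed the filter on low counts together with 13505 genes in all, whereas Nr0b2 and Gpbar1 did not.

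**Figure D1:**
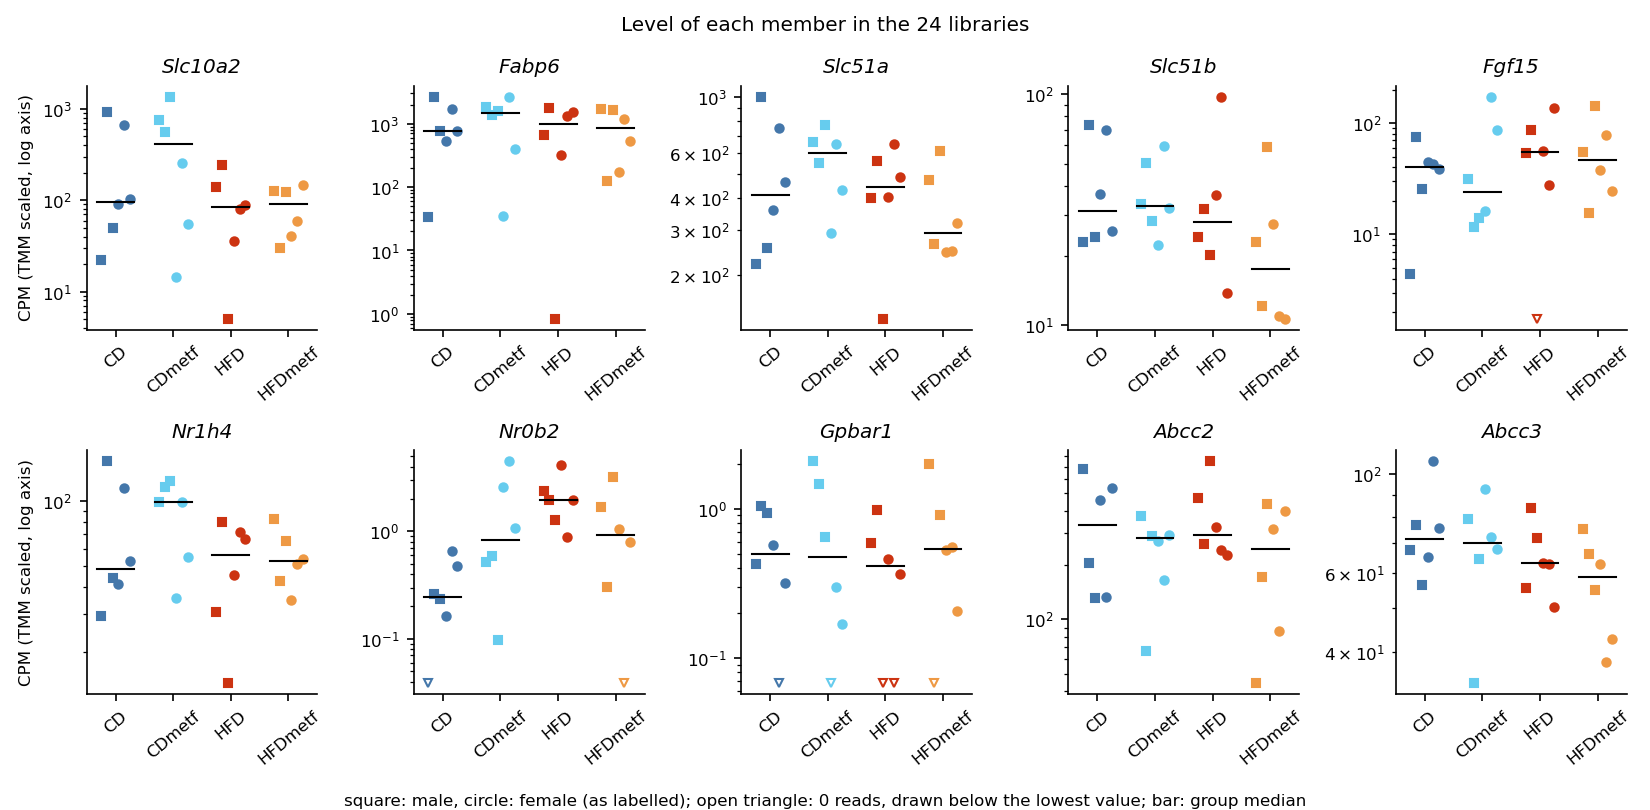
TMM-scaled CPM (log axis) of each of the 10 genes in the 24 libraries of the CD, CDmetf, HFD and HFDmetf groups, with a bar at the group median, squares for males and circles for females as labelled, and open triangles for 0 reads. The 4 groups overlap for every gene except Nr0b2 in CD and HFD, and HFD M3 is the lowest library for Slc10a2, Fabp6, Slc51a, Fgf15 and Nr1h4.

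The spread between libraries was itself unusual for several of these genes. Over the 24 libraries the SD of log2 CPM was 2.56 for Fabp6, larger than that of 99.8% of the 13505 genes tested. It was 1.97 for Slc10a2 and 1.83 for Fgf15, larger than that of 99.4% and 99.2% of genes, against a median SD of 0.39. Abcc2 (1.02), Slc51b (0.85), Nr1h4 (0.79) and Slc51a (0.69) were also above that median, while Abcc3, at 0.38, was not.

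Slc10a2 (ENSMUSG00000023073, GRCm38 chromosome 8, 5083219 to 5105351) encodes the apical sodium-dependent bile acid transporter, the uptake step. The lowest, median and highest Slc10a2 levels were 22.4, 96.6 and 915 CPM in CD, 14.4, 408 and 1348 CPM in CDmetf, 5.05, 84.4 and 243 CPM in HFD and 29.9, 90.9 and 148 CPM in HFDmetf. All values above 243 CPM came from CD and CDmetf animals, yet these groups also held libraries at 14.4 and 22.4 CPM, below most of those on the high-fat diet, so all groups overlapped. HFD M3 was lower still. In HFD vs. CD, Slc10a2 had a log2 fold change of -1.36 (SE 0.893, 95% interval -3.22 to 0.50), and its FDR was 0.999 (edgeR, quasi-likelihood test, Benjamini-Hochberg). Without HFD M3 this was -1.18. In the metformin-treated animals, HFDmetf vs. CDmetf, the log2 fold change was -1.93 (SE 0.912, interval -3.83 to -0.04), so the unadjusted p was under 0.05, but edgeR gave an FDR of 0.659 and the difference did not pass the test. Leaving out CDmetf M3, the library with the highest Slc10a2 level, gave -1.27, and the unadjusted p was at or over 0.05 in 13 of the 24 fits that left out 1 library. Pairs of libraries from different animals with the same sex and replicate number are given as a description only, since the numbers are not shown to pair the animals. Here and below, the same counts of pairs were not taken over all tested genes. Slc10a2 was higher in HFD than in CD in 1 of 6 pairs and higher in HFDmetf than in CDmetf in 2 of 6.

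Levels of proximal marker genes were set beside these comparisons. Of the 7, 2 had p under 0.05 in HFD vs. CD, Fabp1 and Onecut2, both higher in HFD, against 4.75% of all genes. In HFDmetf vs. CDmetf 0 had p under 0.05, against 7.55% of all genes, and none passed the FDR by edgeR in either comparison. By direction, 6 of the 7 were higher in HFD than in CD, with a median log2 fold change of 0.97. In HFDmetf vs. CDmetf 5 of the 7 were higher in HFDmetf, with a median of 1.12. Onecut2 was at 56.4 CPM in HFD M3 but at 0.903 to 3.54 CPM in the other HFD libraries, beside 0.466 to 3.09 CPM in CD. Fabp1 was at 1709 CPM in HFD M3 and at most 553 CPM in the other HFD libraries. Of 5 distal markers outside the set, 0 had p under 0.05 in HFD vs. CD (median log2 fold change -0.06). The summed level of the 7 proximal markers ranged from 80.7 to 3503 CPM in CD, from 43.1 to 3201 CPM in CDmetf, from 510 to 4926 CPM in HFD and from 86.9 to 2636 CPM in HFDmetf. The highest sum, 4926 CPM, was that of HFD M3. With that level as a covariate, the log2 fold change of Slc10a2 was -0.10 in HFD vs. CD and -0.22 in HFDmetf vs. CDmetf, with p over 0.05 in both. Of the 8 libraries with low Gata4, 4 were CDmetf, 2 CD, 2 HFDmetf and 0 HFD.

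Fabp6 (ENSMUSG00000020405, chromosome 11, 43596049 to 43601540) encodes the ileal bile acid binding protein. Fabp6 levels (lowest, median, highest) were 33.9, 776 and 2599 CPM in CD, 35.2, 1494 and 2618 CPM in CDmetf, 0.841, 994 and 1746 CPM in HFD and 122, 849 and 1724 CPM in HFDmetf. The value of 0.841 CPM, from HFD M3, rested on 2 reads, and CD M1 and CDmetf F1 were low as well, so that each group mixed high and low libraries. HFD vs. CD gave a log2 fold change of 0.03 (interval -1.93 to 1.98) and, without HFD M3, 0.28.

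Promoter sequences, from 250 bases before to 50 bases after a transcription start, are given for 3 of the genes whose levels moved together. They were taken from RefSeq on GRCm38.p6, where 8 of the 10 genes had an entry. The window of Slc51a, whose level moved with those of the 3 genes, held no match to the motifs below and is not printed. The RefSeq start lies 64 bases inside the gene coordinates given here for Slc10a2, 22 bases outside them for Fabp6 and 26927 bases inside them for Nr1h4, so the Nr1h4 window is that of an internal start. Fgf15 and Abcc3 had no RefSeq entry. Capitals mark matches, on either strand, to IR-1, the FXR-type inverted repeat AGGTCANTGACCT, with up to 2 mismatches in its 12 fixed letters, to the HNF1 motif GTTAATNATTAAC with up to 2 mismatches, or to the GATA motif AGATAA with 0 mismatches. The windows are chr8:5105238-5105537 for Slc10a2, chr11:43601513-43601812 for Fabp6 and chr10:89506609-89506908 for Nr1h4, all on the minus strand and written 5′ to 3′.
Slc10a2: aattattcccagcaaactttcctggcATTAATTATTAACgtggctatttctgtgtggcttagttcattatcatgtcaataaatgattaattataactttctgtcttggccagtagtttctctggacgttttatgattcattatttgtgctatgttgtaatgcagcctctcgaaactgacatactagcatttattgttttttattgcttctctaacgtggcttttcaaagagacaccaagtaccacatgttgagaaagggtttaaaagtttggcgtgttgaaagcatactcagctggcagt
Fabp6: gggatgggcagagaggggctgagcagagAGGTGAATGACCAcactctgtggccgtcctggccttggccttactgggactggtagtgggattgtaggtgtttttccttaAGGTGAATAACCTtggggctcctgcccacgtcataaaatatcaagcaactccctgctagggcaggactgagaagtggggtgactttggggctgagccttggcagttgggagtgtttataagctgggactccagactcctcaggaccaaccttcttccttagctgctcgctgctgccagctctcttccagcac
Nr1h4: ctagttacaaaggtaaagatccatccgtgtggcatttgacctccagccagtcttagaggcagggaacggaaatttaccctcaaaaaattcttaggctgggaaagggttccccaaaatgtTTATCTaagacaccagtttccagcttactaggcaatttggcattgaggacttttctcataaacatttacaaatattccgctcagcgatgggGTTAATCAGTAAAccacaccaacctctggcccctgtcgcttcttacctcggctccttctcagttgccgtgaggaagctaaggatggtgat

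The Slc10a2 window held an HNF1 match with 1 mismatch at -224 to -212, counted from the RefSeq start. Fabp6 held 2 IR-1 matches, at -222 to -210 and at -142 to -130, each with 2 mismatches. In the Nr1h4 window a GATA match, TTATCT on this strand, lay at -131 to -126 and an HNF1 match with 2 mismatches at -40 to -28, both relative to the internal start. Among all 32851 promoters of the same length, 1.14% held an IR-1 match, 1.36% an HNF1 match and 11.2% a GATA match. Of the 8 windows of the set, IR-1 was found in 1, HNF1 in 3 (the third being Abcc2, at -75 to -63) and GATA in 1. The windows of Slc51a, Slc51b, Nr0b2 and Gpbar1 held none of these letters.

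Export across the basolateral membrane is carried out by the heterodimer of OSTalpha and OSTbeta, encoded by Slc51a (ENSMUSG00000035699, chromosome 16, 32474504 to 32487879) and Slc51b (ENSMUSG00000053862, chromosome 9, 65412714 to 65422955). Slc51a had lowest, median and highest levels of 222, 413 and 996 CPM in CD, 293, 603 and 773 CPM in CDmetf, 135, 445 and 652 CPM in HFD and 247, 292 and 614 CPM in HFDmetf. For Slc51b the corresponding values were 23, 31.2 and 73.1 CPM in CD, 22.2, 32.9 and 59.6 CPM in CDmetf, 13.8, 28.1 and 97.0 CPM in HFD and 10.7, 17.5 and 58.9 CPM in HFDmetf. The HFDmetf median was the lowest of the 4 for both subunits, but the ranges overlapped in every comparison. In HFDmetf vs. CDmetf, Slc51a was lower in 6 of 6 pairs, with a log2 fold change of -0.59 (SE 0.355, interval -1.33 to 0.15, FDR = 0.692 by edgeR). Slc51b gave -0.50 in the same comparison (SE 0.431, interval -1.39 to 0.40, FDR = 0.792 by edgeR), and -1.15 without HFDmetf M3. Among the settings tried, both passed the threshold only when limma-voom weighted the libraries by quality: Slc51a at -0.93 (FDR = 0.0461) and Slc51b at -1.0 (FDR = 0.0255). That fit called 822 genes in this comparison, 6.09% of those tested. Exons of Slc51a share 17.7% of their bases with Pcyt1a on the other strand, and those of Slc51b 12.8% with Rasl12. Pcyt1a had a median of 186 CPM over all libraries beside 447 CPM for Slc51a, and Rasl12 one of 4.7 CPM beside 27.9 CPM for Slc51b. The counted strand is not given in the sources used here, so reads of the partners could not be told apart in these stretches.

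Abcc2 (ENSMUSG00000025194, chromosome 19, 43782192 to 43840740) encodes MRP2, an apical exporter of conjugates that is strongest in the proximal intestine. Abcc2 levels (lowest, median, highest) were 132, 333 and 679 CPM in CD, 66.8, 282 and 376 CPM in CDmetf, 226, 292 and 750 CPM in HFD and 44.3, 244 and 433 CPM in HFDmetf. The lowest values were in the metformin-treated groups, and all ranges overlapped. HFDmetf vs. HFD gave a log2 fold change of -0.71 (interval -1.60 to 0.19), higher in 1 of 6 pairs, with FDR = 0.620 by edgeR. CDmetf vs. CD gave -0.55 (interval -1.43 to 0.33). Abcc3 (ENSMUSG00000020865, chromosome 11, 94343295 to 94392997) encodes MRP3, a basolateral exporter. It varied least of the 8 tested genes, with levels of 56.4, 71.7 and 107 CPM in CD, 34, 70.3 and 92.6 CPM in CDmetf, 50.3, 63.1 and 83.8 CPM in HFD and 37.9, 58.9 and 75.3 CPM in HFDmetf. Its group medians thus differed little beside the ranges within groups.

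Nr1h4 (ENSMUSG00000047638, chromosome 10, 89454234 to 89533585) encodes FXR, the bile acid receptor. Its levels (lowest, median, highest) were 29.4, 48.2 and 152 CPM in CD, 35.6, 98.2 and 124 CPM in CDmetf, 14.3, 55.9 and 79.6 CPM in HFD and 34.5, 52.5 and 82.5 CPM in HFDmetf. The highest libraries were again CD and CDmetf animals, with overlapping ranges. Nr1h4 was lower in HFDmetf than in CDmetf in 6 of 6 pairs, with a log2 fold change of -0.57 (SE 0.352, interval -1.30 to 0.17), with FDR = 0.701 by edgeR. HFD vs. CD gave -0.34 (interval -1.07 to 0.40) and, without HFD M3, -0.15. CDmetf vs. CD gave 0.40 (interval -0.33 to 1.13) and ranged from 0.24 without CD M1 to 0.62 without CD M2.

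Fgf15 (ENSMUSG00000031073, chromosome 7, 144896531 to 144900953) encodes the enterokine induced by FXR. Fgf15 levels were 4.36, 40.6 and 75.2 CPM in CD, 11.7, 24 and 171 CPM in CDmetf, 0, 55.2 and 138 CPM in HFD and 15.4, 46.5 and 141 CPM in HFDmetf, again as lowest, median and highest. HFD M3 had 0 Fgf15 reads among its 2699529 reads on genes, whereas every other library had some. HFD vs. CD gave a log2 fold change of 0.77 (SE 0.738, interval -0.77 to 2.30, FDR = 0.999 by edgeR) and, without HFD M3, 1.01. In HFDmetf vs. CDmetf the value was 0.45 (interval -1.17 to 2.06), which turned to -0.14 without HFDmetf M3. Of the exon bases of Fgf15, 25.7% lie opposite Gm26793 and Gm39119, which had median levels of 0.450 and 0.547 CPM.

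Nr0b2 (ENSMUSG00000037583, chromosome 4, 133553376 to 133556536) encodes SHP, a corepressor induced by FXR, and had few reads. In CD the 6 libraries M1 to M3 and F1 to F3 held 0, 1, 1, 2, 2 and 9 reads, or 0 to 0.660 CPM. In HFD they held 8, 6, 3, 171, 2 and 80 reads, or 0.886 to 4.12 CPM. All HFD libraries were thus above all CD libraries, at medians of 1.96 and 0.247 CPM. Across the 36824 genes with at least 1 read, 12 (0.0326%) had all HFD libraries above all CD libraries, and Nr0b2 was the only one of the 10 genes among them. CDmetf libraries held 2, 2, 3, 8, 15 and 44 reads (0.0968 to 4.47 CPM) and HFDmetf libraries 11, 1, 7, 12, 0 and 23 reads (0 to 3.17 CPM), and both groups overlapped CD and HFD. A count of 0 among the reads of HFDmetf F2 allows up to 1.65 CPM, taking 3 reads as the limit, and 12 of the 24 libraries held 3 reads or fewer.

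Since Nr0b2 was below the filter, its tests came from a fit to all 36824 genes with a read. HFD vs. CD gave a log2 fold change of 2.98 (SE 0.711, interval 1.53 to 4.43), with an unadjusted p under 0.05, as for 3.77% of all genes in that fit. Its FDR was 0.449 by edgeR, so the difference did not pass the adjusted threshold. Leaving out 1 library at a time gave 2.64 without CD F1 to 3.52 without CD F3, each with an unadjusted p under 0.05. The value was 3.20 without HFD M2 and HFD F2, 2.97 with the proximal marker level as a covariate and 2.91 with limma-voom. CDmetf vs. CD gave 2.12 (interval 0.61 to 3.63, FDR = 0.959 by edgeR), higher in 5 of 6 pairs, with an unadjusted p under 0.05 as for 4.59% of genes. It ranged from 1.55 without CDmetf F2 to 2.68 without CD F3. These 2 comparisons share the CD libraries, 5 of which held 3 Nr0b2 reads or fewer. HFDmetf vs. HFD gave -0.93 (interval -2.20 to 0.34), and HFDmetf vs. CDmetf gave -0.07 (interval -1.42 to 1.29), higher in 2 of 6 pairs. The interaction of diet and metformin was -3.04 (interval -5.03 to -1.06), with FDR = 0.582 by edgeR and an unadjusted p under 0.05 as for 5.23% of genes, and ranged from -3.58 to -2.56 when 1 library was left out.

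**Figure D2:**
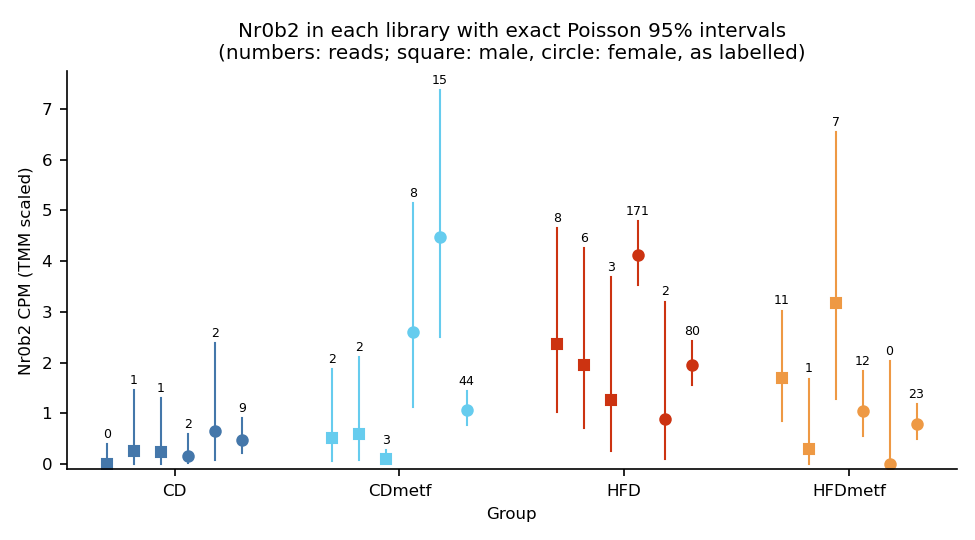
Nr0b2 level (TMM-scaled CPM) in each library of the 4 groups, with exact Poisson 95% intervals that cover counting error only and the number of reads beside each point; squares are males and circles females as labelled. The 6 HFD libraries lie between 0.886 and 4.12 CPM, above all 6 CD libraries, which lie between 0 and 0.660 CPM, but the intervals of HFD libraries with few reads reach into the range of CD.

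Gpbar1 (ENSMUSG00000064272, chromosome 1, 74278550 to 74279624) encodes TGR5, the bile acid receptor of the cell surface. It had 0 to 20 reads per library and group medians between 0.412 and 0.538 CPM. No group stood apart, and the log2 fold change in HFD vs. CD was -0.02. Its largest difference was between the sexes, where male vs. female gave 1.38 (interval 0.45 to 2.30, FDR = 0.552 by edgeR without the filter), with an unadjusted p under 0.05 as for 6.25% of genes. With the proximal marker level as a covariate this was 0.54, with p over 0.05.

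Across the 8 tested genes, 0 passed an FDR of 0.05 in any comparison by edgeR, DESeq2 or limma-voom without quality weights. In HFD vs. CD, 0 of the 8 had an unadjusted p under 0.05, against 4.75% of all genes, and 0% of genes passed the FDR; 3 were higher and 5 lower in HFD, with a median log2 fold change of -0.16. In HFDmetf vs. CDmetf, 1 of 8 (Slc10a2) had p under 0.05, against 7.55% of all genes (0% by FDR), and 7 of the 8 were lower in HFDmetf, with a median of -0.39 beside 0.03 over all genes. In that comparison all 8 B cell markers (median -2.64) and both tested T cell markers were lower with p under 0.05, and the 6 enterocyte markers had values below 0 (median -0.30) with 0 under that p; their part in the result was not tested. In HFDmetf vs. HFD, 0 of 8 had p under 0.05 against 6.87% of all genes (0% by FDR), with 4 higher, 4 lower and a median of -0.08, and without HFD M3 all 8 were lower in HFDmetf. Over all libraries the 6 enterocyte markers were lower in HFDmetf than in HFD (median -0.72), 1 of them (Krt20) with p under 0.05. Their part was not tested. In CDmetf vs. CD, 0 of 8 had p under 0.05 against 5.00% (0% by FDR), and 5 were higher and 3 lower in CDmetf, with a median of 0.29. With the proximal marker level as a covariate, 7 of the 8 were lower in CDmetf instead. The median over all genes was within 0.03 of 0 in each comparison. Comparisons that share a group share its libraries, so their directions are not independent.

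**Figure D3:**
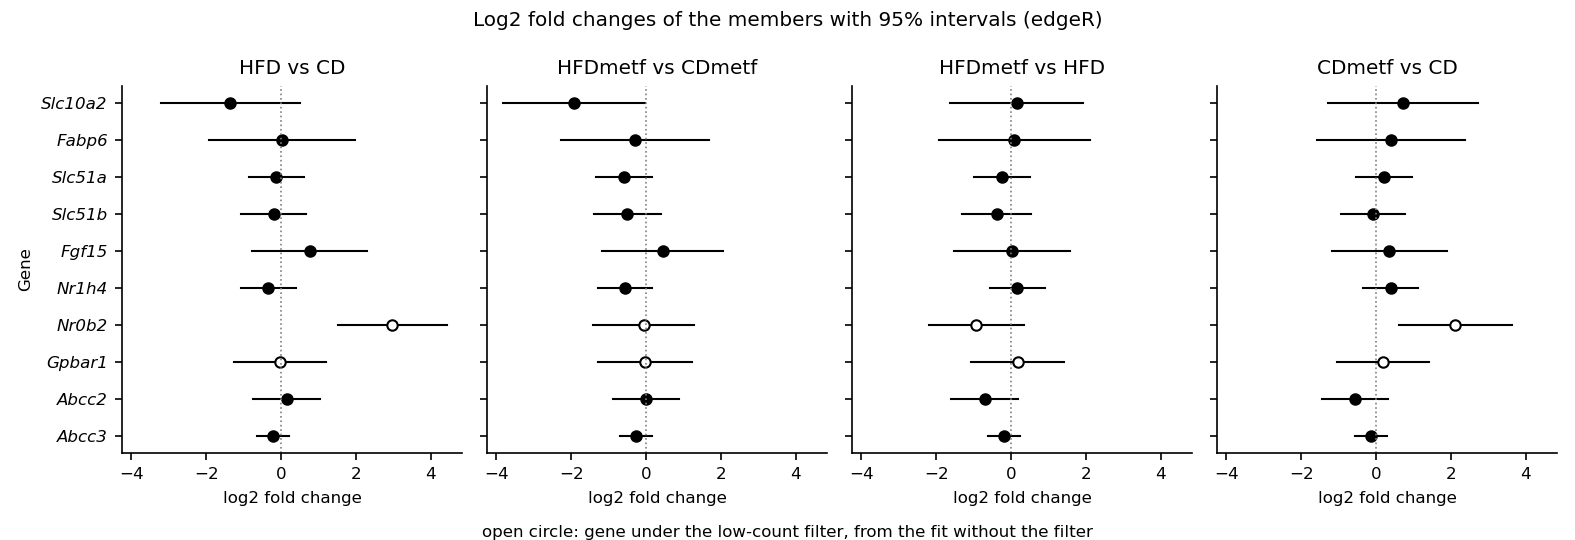
Log2 fold changes (x axis) of the 10 genes (y axis) in each comparison with 95% intervals from edgeR; open circles are Nr0b2 and Gpbar1, taken from the fit without a filter on low counts. Among the 8 filtered genes only the interval of Slc10a2 in HFDmetf vs. CDmetf leaves out 0, at -3.83 to -0.04, and the points of HFDmetf vs. CDmetf lie mostly to the left of 0.

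For the interaction of diet and metformin, the difference of the diet effect between treated and untreated animals, all 8 tested genes had a value below 0, with a median of -0.31, but 0 of 8 had p under 0.05 against 5.76% of all genes (0% by FDR). Slc10a2 had -0.57 and Slc51a -0.46 (interval -1.50 to 0.58). With smooth muscle and B cell marker levels as covariates 4 of the 8 were below 0. The 8 B cell markers moved with this term: all 8 were below 0 in the interaction with p under 0.05, and their summed level was 6.76 to 69.5 CPM in CD, 10.8 to 369 CPM in CDmetf, 12.7 to 299 CPM in HFD and 7.91 to 24.2 CPM in HFDmetf. No defining B cell marker was at 0 throughout, and whether these cells had a part in the result was not tested beyond that fit. Of the 6 enterocyte markers, 5 were also below 0 in the interaction (median -0.67), with 0 at p under 0.05. The part of enterocytes was not tested.

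Between males and females, 0 of the 8 tested genes had p under 0.05 against 7.23% of all genes, and 0.00740% of genes, 1 gene, passed the FDR. That gene was Kdm6a, an X-linked demethylase gene, named after its value was seen. Slc10a2 was higher in males with a log2 fold change of 1.15 (interval -0.23 to 2.52, FDR = 0.695 by edgeR), and with the proximal marker level as a covariate it was -0.12. Fgf15 gave -0.62 (interval -1.74 to 0.50) and Nr0b2 -0.87 (interval -1.87 to 0.13). The sex term follows the labels, which 2 libraries contradict; without HFD M2 and HFD F2 Slc10a2 gave 1.11.

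Several of these genes moved together from animal to animal. Of 45 pairs, 12 had an adjusted p of Pearson's r under 0.05 (100000 permutations, Benjamini-Hochberg over the 45 pairs), 12 had one of Spearman's rho, and 10 had both. The tightest pair was Slc51a and Nr1h4, exporter subunit and FXR, with r = 0.91 and rho = 0.91 over 24 libraries. Slc10a2 and Nr1h4 followed with r = 0.90 and rho = 0.84, and Slc10a2 and Slc51a with r = 0.87 and rho = 0.83. Fabp6 went with Nr1h4 (r = 0.84, rho = 0.87), with Slc51a (r = 0.82, rho = 0.85) and with Slc10a2 (r = 0.81, rho = 0.85). For each of these 6 pairs the permutation p of both measures was 1e-05, the smallest that the permutations can give, and without the 2 libraries farthest from the median r was 0.72 to 0.86. Within groups r of Slc51a and Nr1h4 was 0.80 to 0.96, and within replicate numbers 0.84 to 0.94. These are levels in the same pieces of tissue, which share depth and composition.

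The 4 genes of uptake, binding, export and reception thus formed 1 correlated block, to which the other members belonged in part. The share of such pairs among all tested genes was not taken. Genes outside the set reached as high an r with Slc10a2, as given below. Slc51b correlated with its partner Slc51a at r = 0.67 (rho = 0.70, permutation p = 0.00041 and 0.00025) and with Nr1h4 at r = 0.50 (rho = 0.54), the latter with an adjusted p over the threshold without CD M3. Fgf15 correlated with Fabp6 at r = 0.81 (rho = 0.54, permutation p = 9e-05 and 0.00743), but r was 0.43 without HFD M3 and CD M1. The size of r over all libraries thus rested in part on these. Within the groups without them, r was 0.81 in HFDmetf and 0.26 in CDmetf. Abcc2 and Nr1h4 ran in opposite directions, with r = -0.53 and rho = -0.55 (adjusted permutation p = 0.033 and 0.029). Nr0b2, Gpbar1 and Abcc3 were in none of the 10 pairs.

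**Figure D4:**
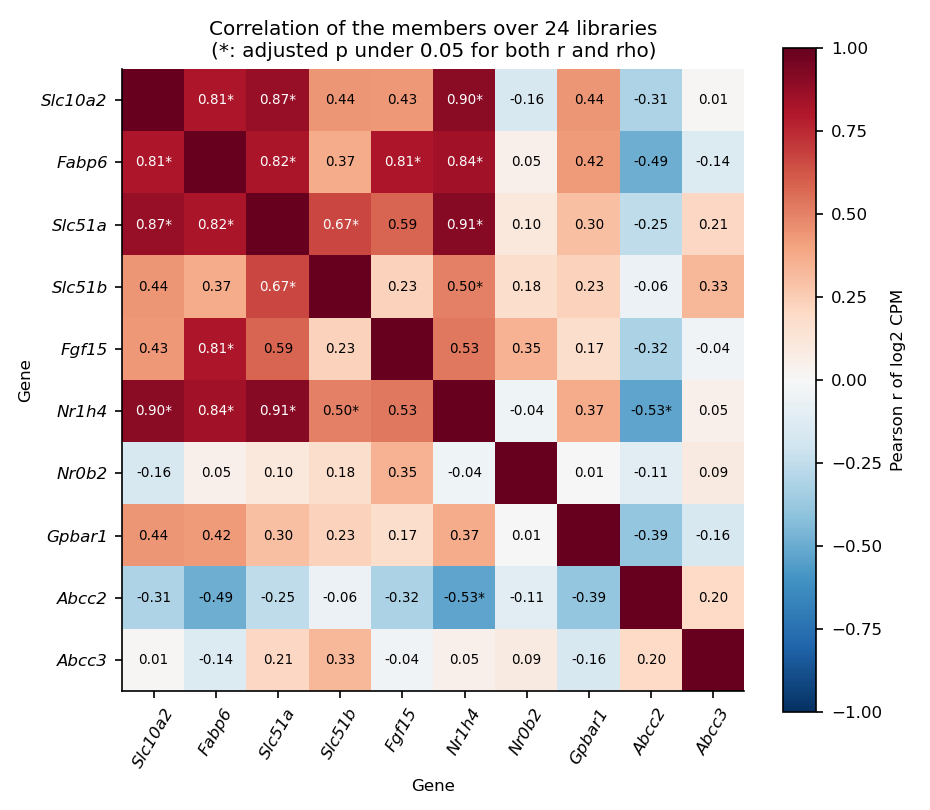
Pearson r of log2 CPM over 24 libraries for every pair of the 10 genes (both axes), with stars where the adjusted p of both r and rho was under 0.05. Slc10a2, Fabp6, Slc51a and Nr1h4 form a block with r between 0.81 and 0.91, and Abcc2 with Nr1h4 is the only starred pair below 0, at -0.53.

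The levels were also set beside Gata4, the proximal factor. Since the libraries formed separate clusters of low and high Gata4, no r over all 24 is given. Of the 8 libraries with the highest Nr1h4 level, 7 were among the 8 with low Gata4. The number was 6 for Slc10a2, 6 for Fabp6, 5 for Slc51a, 5 for Gpbar1, 5 for Abcc3, 4 for Slc51b, 3 for Fgf15, 2 for Nr0b2 and 1 for Abcc2. The same number was not taken over all tested genes, so these counts are a description only. Within the 16 libraries with high Gata4, Slc10a2 ran against Gata4 with r = -0.69 (rho = -0.64, adjusted permutation p = 0.0502 and 0.0896 over 20 relations) and Nr1h4 with r = -0.67 (rho = -0.57, adjusted permutation p = 0.0502 and 0.155). Fabp6 gave r = -0.66 (rho = -0.68) and Abcc2 r = 0.50 (rho = 0.50), and none of the 20 relations passed an adjusted threshold of 0.05. Without the 2 libraries farthest from the median of Gata4, r was -0.65 for Slc10a2 and -0.56 for Nr1h4. Within the 8 libraries with low Gata4 the values were -0.28 for Slc10a2 (rho = -0.29), -0.25 for Nr1h4 (rho = -0.45), 0.43 for Fabp6 (rho = 0.57) and 0.0081 for Slc51a (rho = -0.071). For Fgf15 r was 0.76 there (rho = 0.57, adjusted p = 0.126 and 0.302 by exact permutation), against -0.55 (rho = -0.46) in the other 16.

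**Figure D5:**
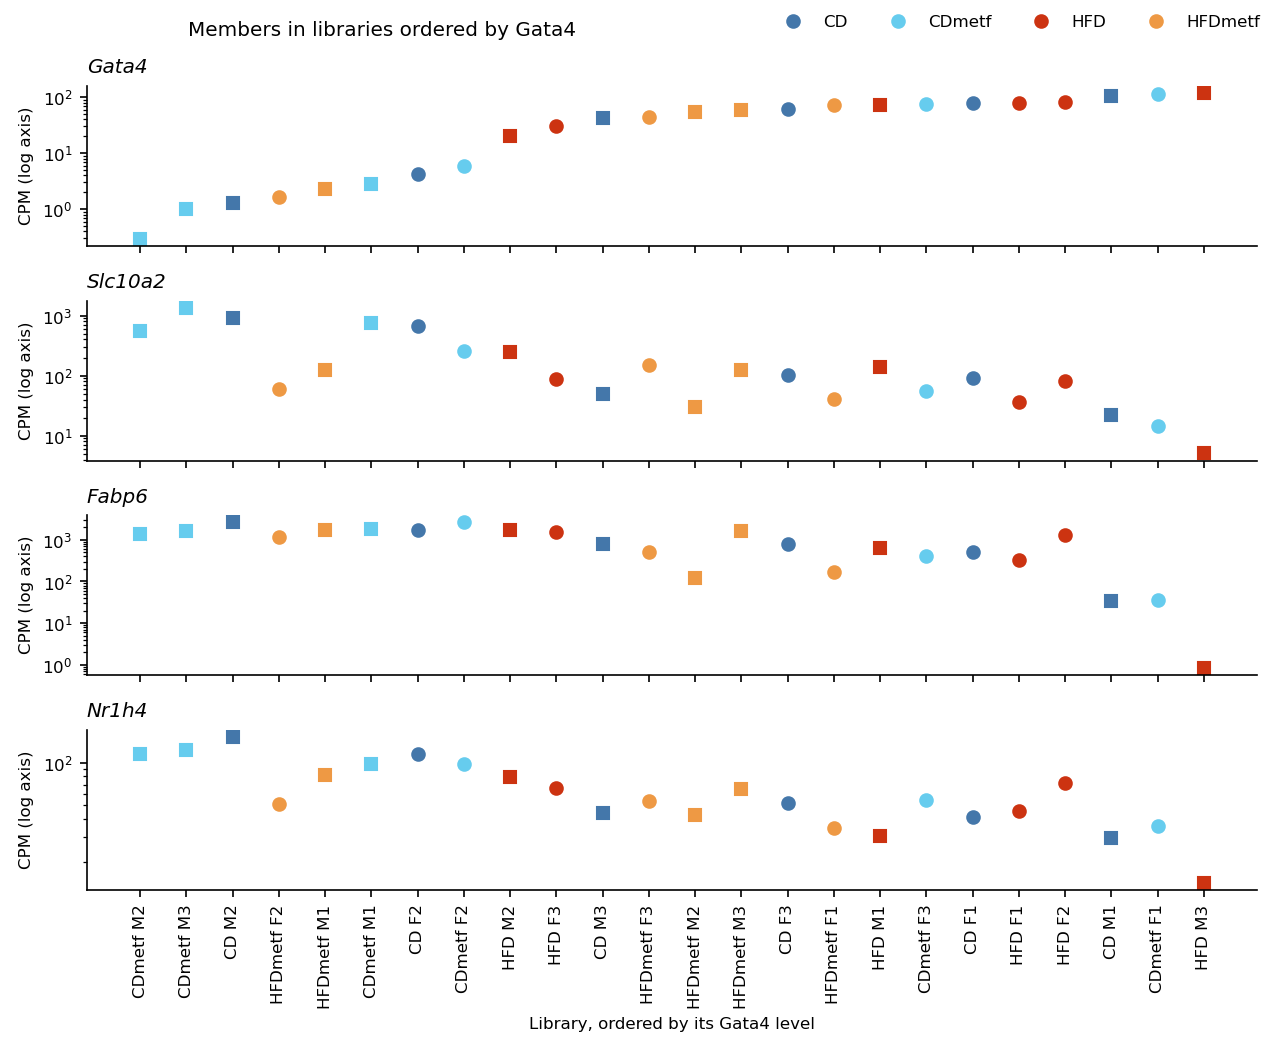
CPM (log axis) of Gata4, Slc10a2, Fabp6 and Nr1h4 in the 24 libraries, ordered from left to right by their Gata4 level and coloured by group, with squares for males and circles for females as labelled. The 8 libraries on the left have Gata4 at 0.293 to 5.96 CPM and include 4 CDmetf and 0 HFD libraries, and HFD M3, at the right end with 117 CPM of Gata4, has the lowest Slc10a2, Fabp6 and Nr1h4.

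Outside the set, the genes most like Slc10a2 over the 24 libraries, by Pearson r of log2 CPM, were Tmigd1 (0.93), Slc25a48 (0.93), Trpm6 (0.93), Gsdme (0.91) and Rnf152 (0.90). Tmigd1, Slc25a48, Trpm6 and Gsdme were each above the highest r of a member with Slc10a2, 0.90 for Nr1h4. A high r with Slc10a2 was thus not particular to the set. The genes outside it most like Fgf15 were Mreg (0.81), Fras1 (0.75), Tmem173 (0.74), Defa22 (0.72) and Zfp113 (0.71). The lists did not share a gene. Trpm6 is a magnesium channel of the distal gut, and Defa22 is an antimicrobial peptide of Paneth cells.

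Of 36 further bile acid and FXR genes, 29 passed the filter. None passed the FDR in any comparison by edgeR, and 0 of 29 had p under 0.05 in HFD vs. CD, CDmetf vs. CD, the interaction or male vs. female. In HFDmetf vs. CDmetf, Slco2b1, an organic anion uptake transporter (log2 fold change 0.46), and Ces2a, a carboxylesterase (1.06), were higher in HFDmetf and Abcg2, an apical exporter (-0.71), was lower, each with an FDR of at least 0.561 by edgeR. These 3 of 29 had p under 0.05, against 7.55% of all genes. In HFDmetf vs. HFD, Cyp3a25, a bile acid hydroxylating P450 family member, gave -0.97 and was the only one of the 29 with p under 0.05, against 6.87% of all genes. The median log2 fold change of the list was 0.02 in HFD vs. CD, -0.18 in HFDmetf vs. HFD and -0.17 in CDmetf vs. CD, where 24 of 29 were lower in CDmetf. The hepatic synthesis gene Cyp7a1 had 0 reads in all 24 libraries.

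Targets of other nuclear receptors were listed for comparison. Of 9 genes listed for LXR, PPARalpha and VDR, 6 were tested, and in HFD vs. CD 3 had p under 0.05, all higher in HFD, against 4.75% of all genes, and none passed the FDR. These were Cyp4a10, a PPARalpha-driven fatty acid hydroxylase (log2 fold change 5.86), Pdk4, a brake on glucose oxidation (1.44), and Abca1, the LXR-driven cholesterol exporter (0.84). Cyp4a10 had few reads, with a median of 0.938 CPM, a highest level of 10.6 CPM and 0 reads in 8 of 24 libraries. In HFDmetf vs. CDmetf, Cyp4a10 gave 2.54, with p under 0.05. The difference between these genes and the bile acid set was not tested.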

How the data were processed

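Ileal RNA from 24 mice was depleted of rRNA and sequenced as directional libraries. The authors trimmed reads with Trimmomatic 0.39, mapped them with STAR 2.5.3a to GRCm38 and deposited raw counts per gene; the counted strand and annotation are not given in the sources used here, and a read that maps to several places is counted on no gene. All 24 columns matched a label, with 0 columns of other samples. Reads on no gene (35.5% to 75.7%) were left out of library sizes. The number of reads on genes, 1829690 to 40606442, sets the counting precision; Poisson intervals and floors cover counting error only, and intervals of fold changes, from edgeR, also hold the spread between animals. Counts were tested in R 4.3.3 with edgeR 4.0.16 (quasi-likelihood, filterByExpr by group, TMM, two-sided, Benjamini-Hochberg over 13505 genes, threshold 0.05) on group, sex and replicate number (17 residual degrees of freedom). The block stood in the model because the study used one; whether the numbers are its cage blocks is not stated. Log2 CPM used a prior count of 1. Correlations were permuted 100000 times with SciPy 1.17.1. Exon lengths and overlaps came from GENCODE M21, promoters from RefSeq on GRCm38.p6. Alternatives used limma 3.58.1 and DESeq2 1.42.0, other filters, scalings, covariates and sets of libraries. The members and lists were chosen with earlier results of these data known. All members are named; from the lists, genes with p under 0.05 (at most 5 a list and comparison), and the 5 genes most like Slc10a2 and Fgf15. The tests were tested on simulated data. A result of the list of other nuclear receptor targets is not reported here.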

Additional observations from a re-analysis of the deposited data

Results flagged for a closer look

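In 5 of 40 combinations of gene and group, the library at one end lay far from the other 5, with a gap to its neighbour of over 0.625 of the group's range of log2 CPM (Dixon's limit for 6 values). Chance alone gives about 1 in 20. HFD M3 was the low library in 3 of them: the share of the range was 0.767 for Fabp6 (0.841 CPM, 2 reads), 0.692 for Slc51a (135 CPM) and 0.727 for Fgf15 (0 reads). The same library had the highest Gata4 level of all, 117 CPM, and Slc10a2 at 5.05 CPM. Fabp6 in CD M1 gave 0.630 (33.9 CPM), and Abcc3 in CDmetf M2 gave 0.635 (34 CPM). The cause was not tested in any of the 5.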

How the results depend on the processing

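The intervals of Fabp6, Slc10a2 and Fgf15, whose levels spread widely within groups of 6, were the widest of the 8 tested genes, and Nr0b2 and Gpbar1 are limited by depth. Among 308 recomputed values outside the omission of single libraries, 293 kept their direction and their side of the FDR threshold, 13 changed sign and 2 newly passed it; among 516 values without 1 library, 505 kept both and 11 changed sign. The cause was not tested in any case.

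Counts of genes under an FDR of 0.05 depended on the tool. With limma-voom and sample quality weights they were 1425 in HFD vs. CD, 822 in HFDmetf vs. CDmetf (2 of them in the set), 2429 in HFDmetf vs. HFD, 32 in CDmetf vs. CD, 908 in the interaction and 12 between the sexes. DESeq2 gave 12, 4, 0, 4, 4 and 21. Between the sexes the count was also 15 without a filter on low counts, 8 without HFD M2 and HFD F2, 6 with smooth muscle and B cell markers as covariates, 0 without HFD M3 and CD M3, and 0 to 8 without 1 library (8 without HFD M2, 7 without HFD F2, 4 without HFDmetf M3, 0 without CDmetf M1). Over these settings the genes with an unadjusted p under 0.05 numbered 428 to 3520 in HFD vs. CD, 766 to 3253 in HFDmetf vs. CDmetf, 324 to 4747 in HFDmetf vs. HFD, 393 to 1820 in CDmetf vs. CD, 470 to 3215 in the interaction and 628 to 2303 between the sexes.

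The following log2 fold changes reversed. In HFD vs. CD, Fabp6 was -1.33 with limma-voom, -1.20 with quality weights and -0.023 without the sex term, and -0.57 to 0.28 without 1 library. Slc51a was 0.11 with the proximal covariate and -0.31 to 0.058 without 1 library. Abcc2 was -0.055 without HFD M2 and HFD F2, -0.53 with smooth muscle and B cell covariates, -0.18 with the proximal covariate, -0.20 without HFD M3 and CD M3, and -0.090 to 0.34 without 1 library. In HFDmetf vs. CDmetf, Fgf15 was -0.47 with quality weights and -0.14 to 0.91 without 1 library. With the proximal covariate, Slc10a2 was -0.71 and Nr1h4 -0.043 in CDmetf vs. CD, and Slc10a2 -0.12 in male vs. female. The interaction of Slc10a2 was -1.01 to 0.016 without 1 library. Slc10a2 in HFDmetf vs. CDmetf stayed below 0, from -2.37 to -1.27 without 1 library.

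Replicate numbers did not meet the rule for pairing: libraries of different groups correlated at 0.137 on average with the same number (72 pairs) and at -0.068 with different numbers (144 pairs), and same-sex pairs ran from -0.242 to 0.621. Without the replicate block no FDR call in the set changed, Slc10a2 was -2.08 in HFDmetf vs. CDmetf, Nr0b2 3.05 in HFD vs. CD, and Fabp6 reversed to -0.15 in HFD vs. CD. CPM without TMM factors moved 40 of 40 group medians by less than 1 SD. That limit is wide for these genes, with an SD of 383 CPM for Slc10a2 in CD. The factor of CD M3 was 0.192, and without it Slc10a2 in that library was 9.47 CPM instead of 49.4 CPM. The filter on the design matrix, the proximal covariate, the omission of HFD M3 with CD M3 and the alternatives for Nr0b2 and Gpbar1 were chosen after seeing the data.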
